A study of Mus musculus with 9 samples.

Results

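Myeloid cells sorted by CD11b from hemispheres with glioma, taken from mice given the arginase inhibitor OAT-1746 alone (2 libraries) were compared with those of vehicle-treated mice (CTR, 2 libraries). Together these are 4 of the 9 libraries of the series. The libraries were chosen by the treatment in their labels, and each is described on its own. All mice were male C57BL/6J animals, 10 to 12 weeks old at the start, with GL261 luc+ tdT+ glioma cells implanted in the right striatum, and mice were allocated to the groups at random. The OAT-1746 group received 50 mg/kg by oral gavage 2 times a day, and the CTR group received saline by gavage at the same times. The remaining libraries came from mice given an anti-PD-1 antibody at 2.5 mg/kg (2 libraries) or the antibody together with OAT-1746 at the doses above (COMB, 3 libraries). Cells were taken at day 28 after implantation according to the methods and at day 21 according to a figure legend, and the study describes its libraries as 2-3 biological replicates.

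Arginase splits L-arginine into urea and ornithine, and ornithine feeds the polyamines that dividing cells need. In gliomas the enzyme is made mainly by myeloid cells, that is, by resident microglia and by monocytes and macrophages that enter from the blood, and arginine that they use up is lost to lymphocytes. CD11b, the integrin encoded by Itgam, is carried by all of these cells and by neutrophils and some NK and dendritic cells, so that a CD11b+ sort is a mixture in which each cell type brings its own transcripts.

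The data were read pairs counted per gene, with no normalization by the authors. Library totals were 17490386 and 17729568 counts in CTR, 17380045 and 16784406 in OAT-1746, and between 13048075 and 18796479 over all 9 libraries. The counts sufficed to test 12538 of 21890 protein-coding genes, and levels are given as CPM (counts scaled to the library total, with factors from the TMM method). Differences are written as log2 of OAT-1746 over CTR with their standard error (SE), so that 1 is a doubling, and rest on 2 libraries against 2. They come from edgeR's quasi-likelihood model fitted to all 9 libraries, with Benjamini-Hochberg adjustment over all tested genes. The SE therefore draws on the spread within all 4 groups and not on the OAT-1746 and CTR libraries alone.

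The OAT-1746 libraries did not lie equally far from CTR, and replicate 2 stood apart from every other library of the series. For each gene the distance of a library from the mean of the CTR libraries was taken on the log2 scale. It exceeded 1 for 136 genes (1.08%) in either CTR library, for 1080 genes (8.61%) in OAT-1746 replicate 1 and for 3303 genes (26.3%) in OAT-1746 replicate 2. The CTR mean includes the CTR libraries, so their distances are smaller by construction and are no measure of the distance of an outside library without a difference. Replicate 2 had the highest level of the 9 libraries for 3789 genes and the lowest for 3959, together 61.8% of all tested genes. The next library by this measure, COMB replicate 2, had 32.9%. OAT-1746 replicate 1 had 12.8%, less than CTR replicate 1 with 23.9% and CTR replicate 2 with 15.2%. Levels below are therefore given for both OAT-1746 libraries, and beside the median of a gene list stands the median distance of each OAT-1746 library from the CTR mean.

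**Figure D1:**
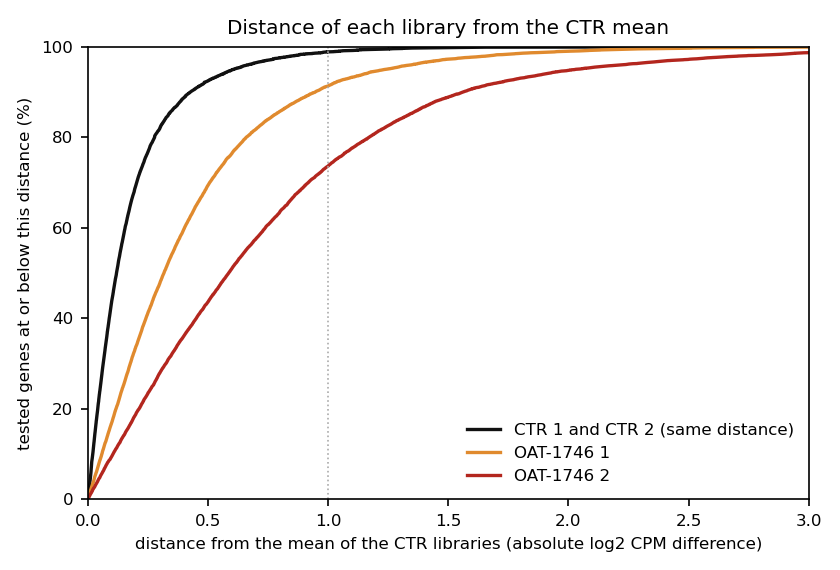
Cumulative share of the 12538 tested genes (vertical axis, %) against the absolute log2 CPM difference of each library from the mean of the CTR libraries (horizontal axis). The CTR libraries share a curve because each is equally far from their mean, which includes them and so makes their distances smaller by construction. The curve of OAT-1746 replicate 2 lies to the right of that of replicate 1, with 26.3% against 8.61% of genes beyond a distance of 1 (dotted line).

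The difference from CTR also varied with the length of the transcripts. When the tested genes were divided into 10 bins of equal size by length, the bin of the shortest genes (median 1380 bases) had a median log2 difference of -0.42, with -0.24 in replicate 1 and -0.60 in replicate 2. In the bin of the longest genes (median 12600 bases) the median was 0.25, with 0.13 and 0.36 in the 2 libraries. Both OAT-1746 libraries lay below CTR, which here and throughout means beyond both CTR libraries, for 50.6% of genes in the first of these bins and for 17.0% in the last. List medians are therefore also given after a correction for length and GC content where it moved them by over 1.5 times or across 0. The same holds for the other settings and for fits without 1 library, with a range where many of them did so. List medians with the replicate block and this correction together are given only in ranges. Values without 1 OAT-1746 library are mostly not repeated where they were within 1.5 times of the median of the other. Whether RNA quality differed between the libraries was not tested.

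Marker genes were compared with the sort label. Itgam stood at 302 and 369.5 CPM in the CTR libraries and 445 and 446 CPM in the OAT-1746 libraries, and the transcripts of the 10 genes listed as markers of sorted myeloid cells summed to 14977 and 17720.5 CPM in CTR and 19563 and 19951 CPM in OAT-1746. Csf1r made up much of these sums. By number 3 of the 10 genes lay above both CTR libraries in both OAT-1746 libraries and 6 below, with a median of -0.31 (-0.11 in replicate 1 and -0.55 in replicate 2, or -0.07 with the length and GC correction). Fcer1g, a signaling chain of Fc receptors, was a lower member (1050.0 and 1112 CPM in the CTR libraries and 940.2 and 557 CPM in the OAT-1746 libraries). Its log2 difference of -0.53 was -0.11 with the length and GC correction, -0.96 without OAT-1746 replicate 1 and -0.19 without OAT-1746 replicate 2. None of these 10 genes was at 0 in any of the 4 libraries, and Csf1r, a growth factor receptor of microglia and macrophages, was the most abundant of them per kilobase (6299 and 7839 CPM in the CTR libraries and 9939 and 11551 CPM in the OAT-1746 libraries). Markers of other cell types were low. The 19 T cell markers found in the annotation summed to 17.96 and 16.6 CPM in CTR and 22.6 and 22.7 CPM in OAT-1746, those of B cells, which include genes shared with myeloid cells, to 71.1 and 77.2 CPM in CTR and 84.9 and 113 CPM in OAT-1746, and 12 neuron markers to 9.79 and 16.4 CPM in CTR and 27.1 and 29.2 CPM in OAT-1746. Erythroid markers summed to 5.53 and 11.1 CPM in CTR and 1.11 and 30.8 CPM in OAT-1746, and of 8 found 2 were at 0 in all 4 libraries. Hbb-bs, a beta-globin gene and the most abundant of them per kilobase, stood at 2.76 and 6.00 CPM in the CTR libraries and 0.698 and 17.9 CPM in the OAT-1746 libraries. Summed levels of the 14 glioma cell markers were 42.9 and 50.5 CPM in CTR and 49.3 and 37.9 CPM in OAT-1746, those of oligodendrocytes were 326 and 382 CPM in CTR and 328 and 409.5 CPM in OAT-1746, those of astrocytes 126 and 171 CPM in CTR and 211 and 262 CPM in OAT-1746 and those of endothelial cells and pericytes 195 and 159 CPM in CTR and 193 and 231 CPM in OAT-1746. The part of these other cells in the differences described below was not tested.

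Among the myeloid cells themselves, markers of resident microglia were higher in both OAT-1746 libraries, and markers of cells that enter from the blood were lower, mainly in replicate 2. All 24 markers of homeostatic microglia had a positive log2 difference, and for 23 of them both OAT-1746 libraries lay above both CTR libraries, against 30.8% of all tested genes. Their transcripts summed to 18183 and 28343 CPM in CTR and 37784 and 47609.9 CPM in OAT-1746, while the largest sum in the other 5 libraries was 32724 CPM. The median log2 difference was 0.93, with 0.78 in replicate 1 and 1.13 in replicate 2, against 0.01 for all tested genes. The CTR libraries also differed from each other, with medians of -0.30 and 0.30 around their mean, and the list's median was 0.68 when CTR replicate 1 was left out and 1.29 when CTR replicate 2 was. Of the 28 markers of monocytes and macrophages, 0 had a positive difference, and for 16 both OAT-1746 libraries lay below CTR, against 32.1% of all tested genes. Here the libraries parted, with a median of -0.27 in replicate 1 and -2.23 in replicate 2 and summed levels of 12235 and 11796 CPM in CTR and 9213 and 1745 CPM in OAT-1746. In bulk RNA, fewer cells of a type and less RNA per cell cannot be told apart.

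**Figure D2:**
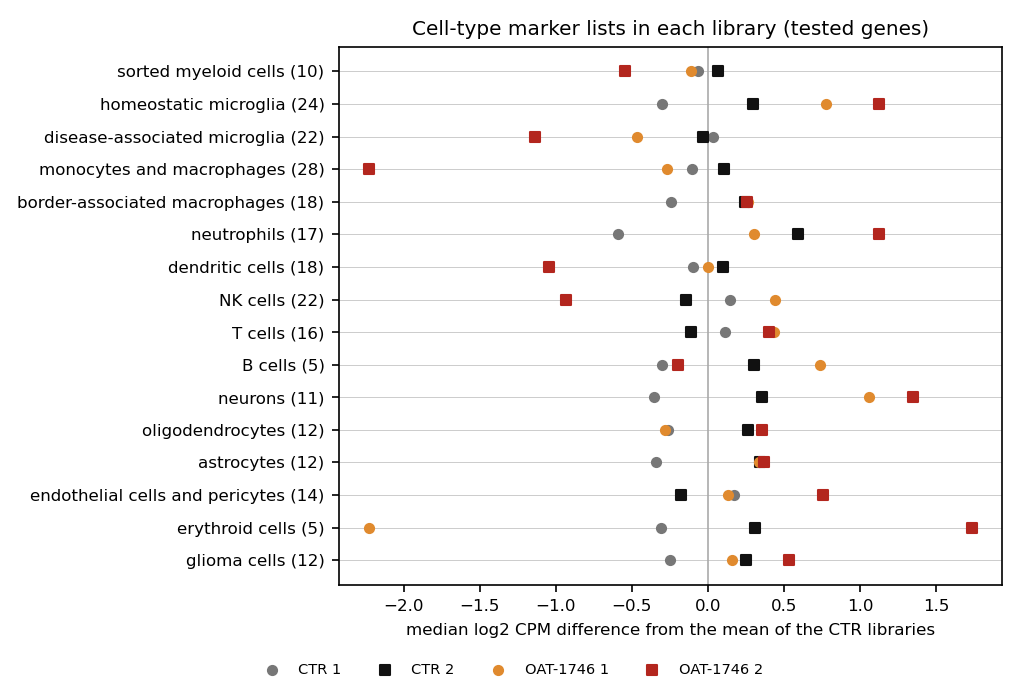
Median log2 CPM difference from the mean of the CTR libraries (horizontal axis) of the tested members of each cell-type marker list (vertical axis, number of tested members in parentheses), for the CTR and OAT-1746 libraries. The microglia list lies to the right in both OAT-1746 libraries (0.78 and 1.13), whereas the monocyte and macrophage list lies far to the left in replicate 2 only (-2.23 against -0.27).

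Several genes show how this looked library by library. P2ry12, a purinergic receptor that homeostatic microglia use to sense damage, stood at 1376 and 2309 CPM in the CTR libraries and 3488 and 4726 CPM in the OAT-1746 libraries (log2 difference 1.16 ± 0.31). Cx3cr1, the fractalkine receptor, was at 2944 and 4247 CPM in the CTR libraries and 5881 and 7576 CPM in the OAT-1746 libraries. In both genes the 4 libraries kept the same order, with CTR replicate 1 lowest and OAT-1746 replicate 2 highest, and both OAT-1746 libraries were the highest of the 9. The widest separation among the microglia markers was that of Sall3, a zinc finger gene of the spalt family, with 42.2 and 40.6 CPM in the CTR libraries and 102 and 129.9 CPM in the OAT-1746 libraries and 43.3 ± 13.3 CPM (SD, n = 3) in COMB. Its log2 difference was 1.49 ± 0.26, and its adjusted p was 0.061 in edgeR's quasi-likelihood test and 0.000122 in DESeq2, with both libraries above CTR. Lag3, which encodes an inhibitory receptor better known from T cells, stood at 152 and 149 CPM in the CTR libraries and 250.4 and 468 CPM in the OAT-1746 libraries.

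On the side of cells from the blood, Tgfbi, an extracellular matrix protein gene made by macrophages, stood at 5703 and 4298 CPM in the CTR libraries and 2621 and 366 CPM in the OAT-1746 libraries, where both OAT-1746 libraries were the lowest of the 9. Vim, encoding the filament protein vimentin, was at 993 and 962 CPM in the CTR libraries and 760.0 and 212 CPM in the OAT-1746 libraries, and Fn1, the fibronectin gene, at 951 and 543 CPM in the CTR libraries and 381 and 145 CPM in the OAT-1746 libraries. For each of these the value of replicate 1 lay closer to CTR than to replicate 2 on the log2 scale. Ly6c2, the surface marker of classical monocytes, and Ccr2, the chemokine receptor that brings them into tissue, were looked at after their values were seen. Ly6c2 was at 303 and 692 CPM in the CTR libraries and 929 and 39.7 CPM in the OAT-1746 libraries, so that the OAT-1746 libraries held the highest and the lowest value of the 4. Ccr2 was at 337 and 377 CPM in the CTR libraries and 234 and 61.7 CPM in the OAT-1746 libraries.

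Other macrophage states were less even. Of 22 tested markers of disease-associated microglia, both OAT-1746 libraries lay below CTR for 16 and above them for 5, with a median of -0.96 (-0.47 in replicate 1 and -1.14 in replicate 2). Apoe, the lipid carrier that these cells and astrocytes secrete, stood at 2943 and 2326 CPM in the CTR libraries and 1099 and 1277 CPM in the OAT-1746 libraries, a log2 difference of -1.15 ± 0.20, and its level in COMB was 1255 ± 127 CPM (SD, n = 3). Lyz2, a lysozyme gene of myeloid cells, was at 4793 and 4296 CPM in the CTR libraries and 3139.8 and 919 CPM in the OAT-1746 libraries, and Ctsb, a lysosomal cysteine protease gene, at 6199 and 6212 CPM in the CTR libraries and 4847 and 3307 CPM in the OAT-1746 libraries. Ctsd, the gene of the aspartic protease cathepsin D, went the other way with 2527 and 3069.6 CPM in the CTR libraries and 3404 and 4196 CPM in the OAT-1746 libraries. Among 18 markers of border-associated macrophages, 6 lay above and 4 below, and the median of 0.24 (0.26 in replicate 1 and 0.26 in replicate 2, or 0.66 without CTR replicate 2, 0.15 without OAT-1746 replicate 1 and 0.42 with the length and GC correction) turned to -0.17 without CTR replicate 1. Maf, a transcription factor gene of tissue macrophages, was at 319 and 299 CPM in the CTR libraries and 457 and 603 CPM in the OAT-1746 libraries, and the hemoglobin scavenger receptor gene Cd163 at 16.5 and 23.5 CPM in the CTR libraries and 33.3 and 42.9 CPM in the OAT-1746 libraries. Ms4a7, of a family of similar genes whose reads can be hard to assign, stood at 305 and 306 CPM in the CTR libraries and 115 and 32.8 CPM in the OAT-1746 libraries.

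The remaining immune lists were small or split. Of 17 tested neutrophil markers, 3 lay above both CTR libraries and the others overlapped with CTR. The former include Csf3r, a granulocyte growth factor receptor (249.5 and 328 CPM in the CTR libraries and 382 and 475 CPM in the OAT-1746 libraries). The list had a median of 0.57 (0.30 in replicate 1 and 1.13 in replicate 2, and from -0.01 without CTR replicate 1 to 1.05 without CTR replicate 2 over the other settings). Dendritic cell markers had a median of -0.43 (0.00 in replicate 1 and -1.04 in replicate 2, or -0.04 without OAT-1746 replicate 2). Fscn1, an actin-bundling protein gene and the most abundant of these markers per kilobase, was at 268 and 457 CPM in the CTR libraries and 712 and 794 CPM in the OAT-1746 libraries, and Ccl17, a chemokine gene of dendritic cells, at 6.01 and 3.41 CPM in the CTR libraries and 1.46 and 1.43 CPM in the OAT-1746 libraries. NK cell markers had a median of 0.00 (0.44 in replicate 1 and -0.93 in replicate 2, and from -0.98 without OAT-1746 replicate 1 to 0.44 without OAT-1746 replicate 2 over the other settings). Of these 22 genes, 4 lay above and 2 below both CTR libraries. Klrb1b, one of the lower NK markers and of a receptor family with similar sequences, was at 27.9 and 23.9 CPM in the CTR libraries and 10.8 and 4.86 CPM in the OAT-1746 libraries, and Ccl5, a chemokine gene and the most abundant of the NK list per kilobase, overlapped with 149 and 109 CPM in the CTR libraries and 162 and 124 CPM in the OAT-1746 libraries. T cell markers had a median of 0.41 (0.44 in replicate 1 and 0.40 in replicate 2). Of 5 tested B cell markers, 2 lay above both CTR libraries. Their median was -0.44 (0.74 in replicate 1 and -0.20 in replicate 2, or 0.20 without CTR replicate 1, 0.20 without CTR replicate 2, -1.92 without OAT-1746 replicate 1, 0.49 without OAT-1746 replicate 2, -0.24 in DESeq2, 0.81 with at least 10 counts in every library and -0.23 with no filter on low counts). Neuron markers were higher in both OAT-1746 libraries for 8 of 11 genes with a median of 1.20 (1.06 in replicate 1 and 1.35 in replicate 2, or 0.79 without CTR replicate 1), at low levels throughout. Snap25, a synaptic vesicle fusion gene, was at 2.10 and 1.88 CPM in the CTR libraries and 4.37 and 5.26 CPM in the OAT-1746 libraries. Oligodendrocyte markers had a median of 0.04 (-0.28 in replicate 1 and 0.35 in replicate 2, and from -0.29 without OAT-1746 replicate 2 to 0.34 without OAT-1746 replicate 1 over the other settings). Astrocyte markers had one of 0.19 (0.34 in replicate 1 and 0.37 in replicate 2, or -0.11 without CTR replicate 1, 0.84 without CTR replicate 2, 0.32 with at least 10 counts in every library and 0.11 with the length and GC correction). For endothelial cells and pericytes it was 0.40 (0.13 in replicate 1 and 0.76 in replicate 2, or 0.75 without CTR replicate 1, 0.14 without CTR replicate 2 and 0.06 without OAT-1746 replicate 2). Erythroid markers had a median of 0.80 (-2.23 in replicate 1 and 1.74 in replicate 2, or 0.51 without CTR replicate 1, 1.58 without CTR replicate 2, -4.17 without OAT-1746 replicate 2, 1.52 with the length and GC correction and -0.44 in limma voom) and glioma cell markers one of 0.24 (0.16 in replicate 1 and 0.53 in replicate 2, or -0.10 without CTR replicate 1, 0.53 without CTR replicate 2, 0.10 without OAT-1746 replicate 2 and -0.02 with the length and GC correction).

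Across all tested genes, edgeR's quasi-likelihood test called 0 genes between OAT-1746 and CTR at an adjusted p under 0.05 (0.0%). The unadjusted p was under 0.05 for 4049 genes, DESeq2 called 1923 protein-coding genes and limma voom called 0 (1400 at an adjusted p under 0.10). The smallest adjusted p in edgeR was 0.0599, and at an adjusted p under 0.10 edgeR called 1302 genes as higher (10.4%) and 1136 as lower (9.06%) in OAT-1746. These 2438 calls became 0 when CTR replicate 1, CTR replicate 2, OAT-1746 replicate 2 or COMB replicate 3 was left out or when only the CTR and OAT-1746 libraries were fitted, 1391 without COMB replicate 2, 1422 and 1443 without anti-PD-1 replicates 1 and 2, and 4948 without OAT-1746 replicate 1. Among the genes tested in edgeR, DESeq2 called 1005 as higher (8.02%) and 918 as lower (7.32%). The edgeR count was 0 without OAT-1746 replicate 2 and 3617 without OAT-1746 replicate 1, where the lone remaining library was assumed to vary like the other groups, and it was 278 without COMB replicate 1 and 0 without any other library. Both OAT-1746 libraries lay above both CTR libraries for 3863 genes (30.8%) and below them for 4027 (32.1%), and they were the 2 highest of all 9 libraries for 2200 genes (17.5%) and the 2 lowest for 2082 (16.6%). The shares of 30.8% and 32.1% are a background for the counts of gene lists, but over 10 equal bins of genes by mean CPM that below went from 14.5% in the lowest to 47.7% in the highest (24.3% and 31.7% above). For lists of abundant genes 32.1% is therefore too low. In what follows, a gene is called higher or lower in OAT-1746 by the position of its libraries, and none of these differences passed the test at 0.05 in edgeR.

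The genes with the widest empty interval between the CTR and the OAT-1746 libraries were taken among those with a mean of at least 5 CPM, 12 in each direction. Dusp8, a phosphatase gene whose product inactivates the stress kinases JNK and p38, stood at 4.63 and 4.76 CPM in the CTR libraries and 20.7 and 37.5 CPM in the OAT-1746 libraries, with 3.41 ± 0.580 CPM (SD, n = 3) in COMB. The lower OAT-1746 library was more than 4 times the higher CTR library, and the log2 difference was 2.63 ± 0.35 with an adjusted p of 0.0599 in edgeR and 1.59e-08 in DESeq2. Gem, encoding a small GTP-binding protein induced by mitogens, was at 12.3 and 12.5 CPM in the CTR libraries and 43.0 and 101 CPM in the OAT-1746 libraries. Arl4d, a small GTPase gene of the ARF family, was at 6.07 and 7.76 CPM in the CTR libraries and 22.5 and 38.2 CPM in the OAT-1746 libraries, and Ppp1r10, a nuclear regulator of protein phosphatase 1, at 107 and 91.7 CPM in the CTR libraries and 279.7 and 524 CPM in the OAT-1746 libraries. In these 4 genes both OAT-1746 libraries were the highest of the 9, and replicate 2 exceeded replicate 1.

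Zfp532, a zinc finger gene, belonged to the same group with 10.7 and 11.5 CPM in the CTR libraries and 34.2 and 47.8 CPM in the OAT-1746 libraries. Other members were closer together within OAT-1746. Tmem204, a gene for a membrane protein, stood at 10.1 and 11.1 CPM in the CTR libraries and 30.3 and 37.3 CPM in the OAT-1746 libraries, Vsig10l at 2.94 and 3.18 CPM in the CTR libraries and 9.20 and 9.61 CPM in the OAT-1746 libraries and Ccdc162 at 2.52 and 2.82 CPM in the CTR libraries and 7.74 and 8.41 CPM in the OAT-1746 libraries. For these 3 genes the OAT-1746 libraries differed by less than the interval that separated them from CTR. Cdc42bpa, a kinase gene acting downstream of the GTPase CDC42, was at 3.003 and 2.53 CPM in the CTR libraries and 8.21 and 10.4 CPM in the OAT-1746 libraries, and was the only one of the 12 in which the OAT-1746 libraries were not the highest of the 9. The log2 differences of the 12 genes ranged from 1.59 (Ccdc162) to 2.63 (Dusp8).

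Promoters were read for the members whose start site is listed by RefSeq (GRCm38.p6), which were 6 of the 12 genes on the upper side, and the 250 bases before the start were searched on both strands for the cAMP response element TGACGTCA, the binding sequence of CREB and ATF factors. Dusp8 and Arl4d held it, against 1.77% of the 27025 genes in the table, and of 10 genes matched on the lower side 1 held it, Ch25h. The 180 bases before the start of both genes are shown 5′ to 3′ on the strand of the gene, with the element in capitals. A match describes the letters and is not a site of binding.
Dusp8 (chr7:142095285-142095464, minus strand): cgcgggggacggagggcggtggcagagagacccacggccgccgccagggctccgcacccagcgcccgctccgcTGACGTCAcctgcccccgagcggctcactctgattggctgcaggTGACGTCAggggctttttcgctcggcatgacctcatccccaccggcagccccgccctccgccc
Arl4d (chr11:101665361-101665540, plus strand): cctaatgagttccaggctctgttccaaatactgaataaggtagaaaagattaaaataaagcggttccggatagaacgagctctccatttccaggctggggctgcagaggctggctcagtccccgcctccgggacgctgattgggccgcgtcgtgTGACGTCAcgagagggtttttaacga
Dusp8 carries the element 2 times within this stretch and Arl4d carries it close to the start.

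On the lower side the widest interval was that of Nxpe5, at 17.2 and 11.1 CPM in the CTR libraries and 2.27 and 0.973 CPM in the OAT-1746 libraries, with a log2 difference of -3.12 ± 0.83 and 26.7 ± 18.3 CPM (SD, n = 3) in COMB. Sh2d1b1, encoding the adaptor EAT-2 of the receptors of NK cells and macrophages, was at 29.2 and 21.3 CPM in the CTR libraries and 6.402 and 3.38 CPM in the OAT-1746 libraries, with an adjusted p of 0.0599 in edgeR, both libraries below CTR and a log2 difference of -2.37 ± 0.34. Gdf3, a growth factor gene of the TGF-beta family that macrophages make, was at 14.2 and 23.8 CPM in the CTR libraries and 4.37 and 0.458 CPM in the OAT-1746 libraries. Ch25h, which makes 25-hydroxycholesterol, an antiviral oxysterol, was at 45.5 and 29.7 CPM in the CTR libraries and 11.6 and 3.26 CPM in the OAT-1746 libraries, and Kcnn4, a calcium-activated potassium channel gene, at 79.0 and 67.5 CPM in the CTR libraries and 27.1 and 9.84 CPM in the OAT-1746 libraries. In each of these 5 genes both OAT-1746 libraries were the lowest of the 9. Some genes of the group act in cell division. Rrm2, a subunit of the enzyme that makes deoxyribonucleotides, was at 12.97 and 13.6 CPM in the CTR libraries and 5.06 and 1.14 CPM in the OAT-1746 libraries, Pole, the catalytic subunit of DNA polymerase epsilon, at 11.2 and 10.1 CPM in the CTR libraries and 4.02 and 1.49 CPM in the OAT-1746 libraries, and Prc1, which bundles microtubules at the midzone of the dividing cell, at 10.6 and 12.1 CPM in the CTR libraries and 3.43 and 1.37 CPM in the OAT-1746 libraries. Fpr1, the receptor for formylated bacterial peptides, was at 6.91 and 9.41 CPM in the CTR libraries and 2.79 and 2.06 CPM in the OAT-1746 libraries, Gm5150, a gene of the SIRP beta type, at 20.003 and 20.3 CPM in the CTR libraries and 7.33 and 1.32 CPM in the OAT-1746 libraries, and Ndufc1, a subunit of respiratory complex I, at 20.1 and 19.2 CPM in the CTR libraries and 7.97 and 6.70 CPM in the OAT-1746 libraries.

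**Figure D3:**
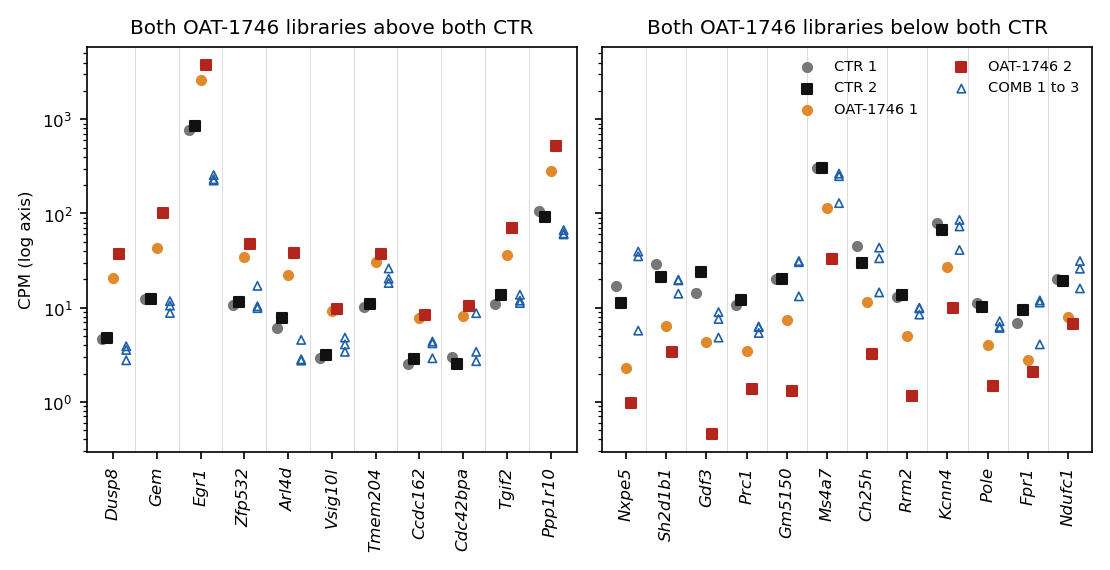
CPM (vertical axis, log scale) of 11 of the 12 genes with the widest empty interval upward (left) and of the 12 downward (right), one symbol for each CTR and OAT-1746 library and triangles for the 3 COMB libraries. By the rule of choice the OAT-1746 libraries do not overlap with CTR in any of these genes, and replicate 2 lies farther from CTR than replicate 1 in each gene drawn.

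Genes of antigen presentation by MHC class II lay lower. Class II molecules carry peptides from ingested proteins to CD4+ T cells, and their genes share the coactivator CIITA. Of 12 tested genes, both OAT-1746 libraries lay below CTR for 10, and the median log2 difference was -1.31, with -0.86 in replicate 1 and -1.40 in replicate 2. H2-Aa and H2-Eb1, which encode chains of the class II molecules themselves, stood at 6999 and 4015 CPM in the CTR libraries and 2099 and 1799 CPM in the OAT-1746 libraries for H2-Aa and at 5144 and 2905 CPM in the CTR libraries and 1443 and 1326 CPM in the OAT-1746 libraries for H2-Eb1. H2-Ab1 was at 8999 and 5366 CPM in the CTR libraries and 2845 and 1899.8 CPM in the OAT-1746 libraries, and Cd74, the invariant chain that guides them to the endosome, at 13815 and 7615 CPM in the CTR libraries and 4426 and 3999 CPM in the OAT-1746 libraries. The CTR libraries were far apart in these genes, with replicate 1 well above replicate 2, and both OAT-1746 libraries were below both and the lowest of the 9. The log2 difference of H2-Eb1 was -1.54 ± 0.36, with an adjusted p of 0.0628 in edgeR and 0.00124 in DESeq2. Without CTR replicate 1 the list's median was -0.70.

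Ciita was at 223 and 93.5 CPM in the CTR libraries and 73.5 and 52.8 CPM in the OAT-1746 libraries. H2-DMb1 and H2-DMa, which load the peptides, were at 507 and 367 CPM in the CTR libraries and 227 and 132 CPM in the OAT-1746 libraries for H2-DMb1 and at 667 and 535 CPM in the CTR libraries and 416 and 354 CPM in the OAT-1746 libraries for H2-DMa, and H2-DMb2 at 46.1 and 30.9 CPM in the CTR libraries and 21.7 and 20.8 CPM in the OAT-1746 libraries. The genes of their inhibitor, which B cells and some dendritic cells express, did not follow. H2-Oa was at 54.8 and 43.1 CPM in the CTR libraries and 38.5 and 79.2 CPM in the OAT-1746 libraries and H2-Ob at 28.9 and 30.6 CPM in the CTR libraries and 37.2 and 54.9 CPM in the OAT-1746 libraries. Ctss, the protease that trims the invariant chain, was at 10614 and 9239 CPM in the CTR libraries and 8036 and 7461 CPM in the OAT-1746 libraries. Reads of these similar genes can be hard to assign to 1 member.

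The promoters of class II genes share a Y box, CCAAT, bound by the factor NF-Y. It was found on either strand within 250 bases before the start in 8 of the 9 listed genes with a RefSeq promoter, the exception being Ctss, against 37.5% of all 27025 genes. The 180 bases before the start of H2-Aa and H2-Eb1 are shown because these genes had among the lowest OAT-1746 levels relative to CTR in the list, with the Y box in capitals on either strand. In H2-Aa the capitals also mark the cAMP response element named above.
H2-Aa (chr17:34287824-34288003, minus strand): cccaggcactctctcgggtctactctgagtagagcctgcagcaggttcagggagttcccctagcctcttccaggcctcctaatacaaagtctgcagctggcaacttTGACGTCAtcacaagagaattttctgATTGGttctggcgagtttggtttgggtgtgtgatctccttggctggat
H2-Eb1 (chr17:34305687-34305866, plus strand): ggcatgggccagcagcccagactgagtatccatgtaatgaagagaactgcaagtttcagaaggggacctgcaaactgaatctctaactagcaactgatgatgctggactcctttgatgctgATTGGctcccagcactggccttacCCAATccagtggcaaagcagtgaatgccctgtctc

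**Figure D4:**
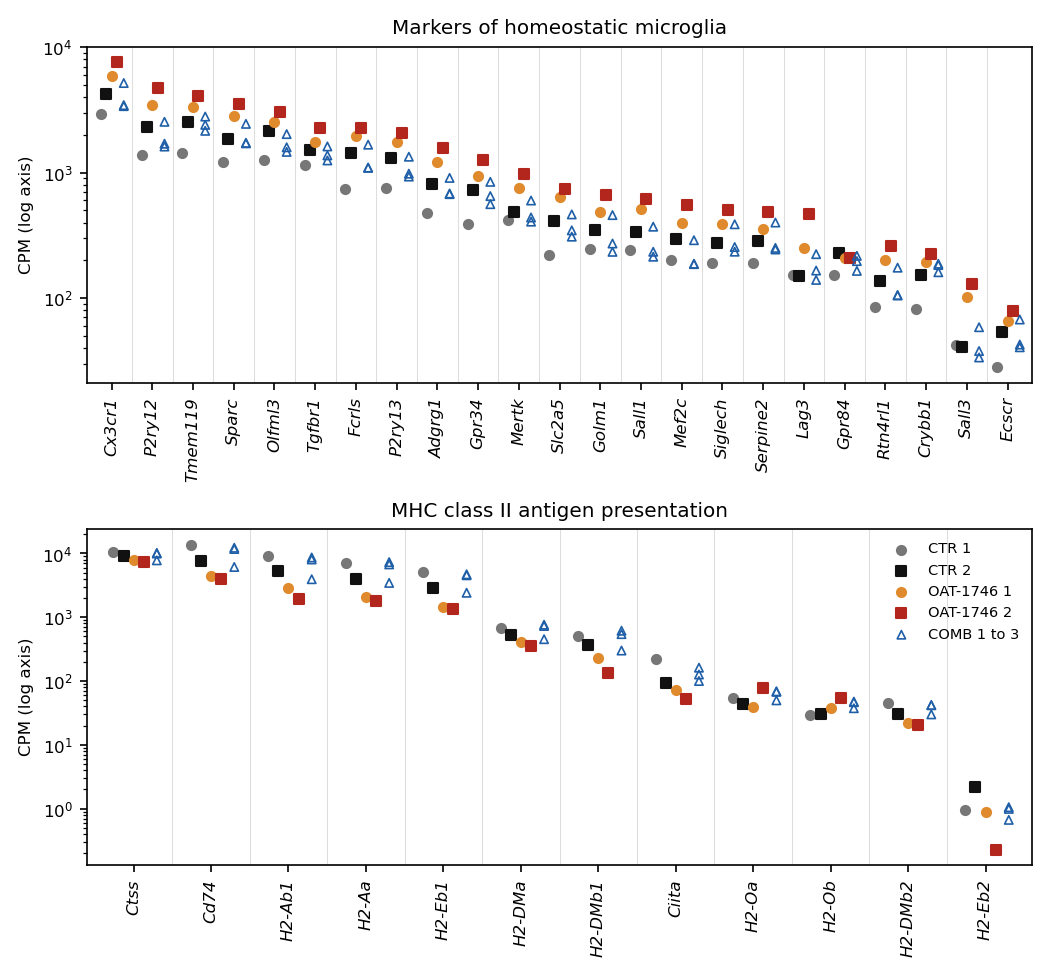
CPM (vertical axes, log scale) of 23 of the 24 markers of homeostatic microglia (top) and the 12 tested genes of MHC class II antigen presentation (bottom), one symbol for each CTR and OAT-1746 library and triangles for the 3 COMB libraries. OAT-1746 libraries lie above both CTR libraries for 22 of the microglia markers drawn (Gpr84 is the exception) and below both for 10 of the class II genes.

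Genes of MHC class I showed the same direction with a smaller difference. Both OAT-1746 libraries lay below CTR for 19 of 22 genes, and the median was -0.47 (-0.21 in replicate 1 and -0.83 in replicate 2). H2-D1 was at 3977 and 3466 CPM in the CTR libraries and 2868 and 2129.6 CPM in the OAT-1746 libraries, H2-K1 at 3838 and 3649 CPM in the CTR libraries and 2659 and 2073 CPM in the OAT-1746 libraries and the light chain gene B2m at 6106 and 6934 CPM in the CTR libraries and 6323 and 4291 CPM in the OAT-1746 libraries. Psme2, a subunit of the proteasome activator induced by interferon-gamma, was at 266 and 264 CPM in the CTR libraries and 192 and 64.9 CPM in the OAT-1746 libraries. In B2m the libraries overlapped, since replicate 1 lay between the CTR libraries.

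Interferon responses separated the OAT-1746 libraries from each other. Among 39 type I interferon-stimulated genes the median was -0.62 (0.04 in replicate 1 and -2.14 in replicate 2, or -1.05 in limma voom). Both OAT-1746 libraries lay below CTR for 9 of these genes. Irf7, a transcription factor gene, stood at 626 and 918 CPM in the CTR libraries and 879 and 98.1 CPM in the OAT-1746 libraries, and Ifitm3, which blocks the entry of viruses, at 532 and 729 CPM in the CTR libraries and 630.3 and 121 CPM in the OAT-1746 libraries. Slfn5, of the schlafen family, was at 324 and 290.2 CPM in the CTR libraries and 231 and 52.4 CPM in the OAT-1746 libraries, and Lgals3bp, encoding a secreted glycoprotein, at 1762 and 1932 CPM in the CTR libraries and 1739.7 and 948 CPM in the OAT-1746 libraries. The 16 GTPase genes induced by interferon-gamma behaved alike with a median of -0.45 (0.02 in replicate 1 and -1.49 in replicate 2), and 4 had both libraries below CTR. Gbp2, a guanylate-binding protein gene, was at 729 and 703 CPM in the CTR libraries and 854 and 195 CPM in the OAT-1746 libraries. Without OAT-1746 replicate 2 the medians of both lists were 0.04 and 0.03, so that the lower medians rested on 1 library.

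Genes of the drug's own pathway were next. Nos2, the inducible nitric oxide synthase that competes with arginase for arginine, was at 16.9 and 19.5 CPM in the CTR libraries and 28.9 and 16.5 CPM in the OAT-1746 libraries, and the groups overlapped. Over the 20 tested genes of arginine metabolism the median was -0.26 (-0.24 in replicate 1 and -0.21 in replicate 2, or -0.17 with scaling by library size only), with 5 above and 8 below both CTR libraries. Gatm, which makes the creatine precursor from arginine, was at 481 and 372 CPM in the CTR libraries and 229.6 and 174 CPM in the OAT-1746 libraries. Ass1, which rebuilds arginine from citrulline, was at 272 and 295 CPM in the CTR libraries and 244 and 27.0 CPM in the OAT-1746 libraries, where replicate 2 alone was far from CTR. Slc3a2, the heavy chain of amino acid transporters, was at 496 and 605 CPM in the CTR libraries and 610.2 and 496 CPM in the OAT-1746 libraries, with overlapping groups.

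Polyamine genes lay lower as a group. Both OAT-1746 libraries were below CTR for 11 of 16 genes and above them for 2, and the median was -0.48 (-0.35 in replicate 1 and -0.52 in replicate 2). Odc1, which makes putrescine from ornithine and so uses the product of arginase, stood at 79.7 and 83.2 CPM in the CTR libraries and 56.2 and 39.2 CPM in the OAT-1746 libraries, with an adjusted p of 0.128 in edgeR at a log2 difference of -0.77 ± 0.31 and both libraries below CTR. Eif5a, the elongation factor gene whose protein carries the polyamine-derived residue hypusine, was at 535 and 507 CPM in the CTR libraries and 355 and 192 CPM in the OAT-1746 libraries, and Atp13a2, a lysosomal polyamine exporter gene, at 261 and 233 CPM in the CTR libraries and 188 and 156 CPM in the OAT-1746 libraries. Azin1, whose product inhibits the antizymes that lead ODC1 to degradation, was above CTR at 105 and 104 CPM in the CTR libraries and 123.04 and 161 CPM in the OAT-1746 libraries, a log2 difference of 0.44 ± 0.18 that was 0.25 without OAT-1746 replicate 2.

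ATF4, the transcription factor that responds to a lack of amino acids, was higher at the transcript level while its known target genes lay on either side. Atf4 stood at 109 and 109 CPM in the CTR libraries and 213 and 279.8 CPM in the OAT-1746 libraries, a log2 difference of 1.18 ± 0.18 with an adjusted p of 0.0599 in edgeR and 2.4e-06 in DESeq2. Asns, asparagine synthetase and a standard reporter of ATF4, was lower with 7.99 and 9.41 CPM in the CTR libraries and 5.12 and 2.40 CPM in the OAT-1746 libraries, and Slc7a11, the cystine transporter gene, stood at 51.1 and 39.3 CPM in the CTR libraries and 21.2 and 4.35 CPM in the OAT-1746 libraries. Slc38a2, a transporter gene for small neutral amino acids, and Ddit4, an inhibitor of mTORC1, were higher, at 156 and 125 CPM in the CTR libraries and 196 and 309 CPM in the OAT-1746 libraries for Slc38a2 and 20.96 and 38.5 CPM in the CTR libraries and 74.6 and 57.9 CPM in the OAT-1746 libraries for Ddit4. Of 22 listed genes, 8 lay above and 9 below both CTR libraries (36.4% and 40.9%, near the shares of all tested genes). Their median of -0.29 (-0.03 in replicate 1 and -0.38 in replicate 2) was -0.04 without OAT-1746 replicate 2 and -0.02 without CTR replicate 2. The cytosolic tRNA synthetases, many of them ATF4 targets too, were lower for 18 of 23 genes with a median of -0.45 (-0.33 in replicate 1 and -0.61 in replicate 2). Dars, for aspartate, was at 124 and 117 CPM in the CTR libraries and 82.0 and 61.2 CPM in the OAT-1746 libraries, while Aars, for alanine, was at 164 and 192 CPM in the CTR libraries and 186 and 183 CPM in the OAT-1746 libraries and overlapped.

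Transcripts of ribosomal proteins were lower with few exceptions, and other genes of translation in smaller shares. Both OAT-1746 libraries lay below CTR for 80 of 82 genes of cytosolic ribosomal proteins, which summed to 57120.1 and 51882 CPM in CTR and 37346 and 27462 CPM in OAT-1746. Rplp0, of the ribosomal stalk, was at 2211 and 2075 CPM in the CTR libraries and 1419 and 893 CPM in the OAT-1746 libraries, and Rpl32 at 1022 and 814 CPM in the CTR libraries and 510.3 and 384 CPM in the OAT-1746 libraries. These genes are short, and the list's median of -0.77 (-0.54 in replicate 1 and -0.97 in replicate 2) became -0.57 after the length and GC correction. Mitochondrial ribosomal proteins behaved alike, below CTR for 72 of 77 genes with a median of -0.68 (-0.48 in replicate 1 and -0.88 in replicate 2), or -0.54 with the correction. Mrpl11 was at 28.1 and 26.1 CPM in the CTR libraries and 14.0 and 10.7 CPM in the OAT-1746 libraries. Translation factors were below CTR for 46 of 65 genes and above for 6, with a median of -0.46 (-0.31 in replicate 1 and -0.65 in replicate 2). Eef1a1, the factor that delivers aminoacyl-tRNA, stood at 12406 and 11695 CPM in the CTR libraries and 8441 and 6773 CPM in the OAT-1746 libraries. In contrast Eef2k, the kinase that inhibits the elongation factor EEF2, was higher, with 76.2 and 120.5 CPM in the CTR libraries and 196 and 236 CPM in the OAT-1746 libraries. Ribosome biogenesis factors were below CTR for 51 of 72 genes with a median of -0.45 (-0.35 in replicate 1 and -0.54 in replicate 2), among them the nucleolar protein gene Npm1 (462 and 386 CPM in the CTR libraries and 271 and 213 CPM in the OAT-1746 libraries).

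The mitochondrial genome and the nuclear genes of the respiratory chain lay on opposite sides. Nuclear genes were below both CTR libraries in both OAT-1746 libraries for 76 of 81, with a median of -0.73 (-0.44 in replicate 1 and -1.15 in replicate 2) that was -0.51 with the length and GC correction. Atp5b, the catalytic subunit gene of ATP synthase, was at 789.7 and 754 CPM in the CTR libraries and 555 and 331 CPM in the OAT-1746 libraries, and Cox4i1, of cytochrome oxidase, at 283 and 299 CPM in the CTR libraries and 207 and 145 CPM in the OAT-1746 libraries. Of 7 tested genes of the mitochondrial genome, 6 were above both CTR libraries and the median was 1.01, with 1.09 in replicate 1 and 0.93 in replicate 2. Their transcripts summed to 12668 and 10114 CPM in CTR and 22425 and 19604 CPM in OAT-1746. The NADH dehydrogenase subunit gene mt-Nd1 was at 1873 and 2113 CPM in the CTR libraries and 4076 and 3604 CPM in the OAT-1746 libraries and the neighbouring mt-Nd2 at 1214 and 1299.9 CPM in the CTR libraries and 2682 and 2524 CPM in the OAT-1746 libraries, while mt-Nd6, the only tested gene on the other strand, was at 64.5 and 19.999 CPM in the CTR libraries and 34.6 and 30.3 CPM in the OAT-1746 libraries and overlapped. In this list replicate 2 was not the farther library.

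Protein and sterol metabolism followed the nuclear respiratory genes. Proteasome subunits were below CTR for 36 of 38 genes with a median of -0.66 (-0.36 in replicate 1 and -1.06 in replicate 2), and Psmd2, of the regulatory particle, was at 249 and 232 CPM in the CTR libraries and 166 and 119 CPM in the OAT-1746 libraries. All 23 tested genes of cholesterol synthesis and LDL uptake had a negative difference, 18 of them with both OAT-1746 libraries below both CTR libraries, and the median of -0.67 (-0.46 in replicate 1 and -0.64 in replicate 2) was -0.67 with the correction. Srebf2, the transcription factor that turns these genes on when sterols are short, stood at 146 and 146 CPM in the CTR libraries and 101 and 72.5 CPM in the OAT-1746 libraries, a log2 difference of -0.75 ± 0.19. Cyp51, which demethylates lanosterol, was at 49.0 and 43.6 CPM in the CTR libraries and 27.0 and 19.9 CPM in the OAT-1746 libraries, with an adjusted p of 0.061 in edgeR at a log2 difference of -0.98 ± 0.18 and both libraries below CTR.

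Sterol genes are activated by SREBP2 together with NF-Y. All 17 genes of the list with a RefSeq promoter held a CCAAT Y box on either strand within 250 bases before the start, against 37.5% of the 27025 genes, and 3 of them (Hmgcs1, Msmo1 and Srebf2) held the sterol regulatory element written as TCACNCCA, against 4.2%. The promoters of Srebf2 and Cyp51 are shown with these elements in capitals, which are both kinds in Srebf2 and a Y box in Cyp51.
Srebf2 (chr15:82147089-82147268, plus strand): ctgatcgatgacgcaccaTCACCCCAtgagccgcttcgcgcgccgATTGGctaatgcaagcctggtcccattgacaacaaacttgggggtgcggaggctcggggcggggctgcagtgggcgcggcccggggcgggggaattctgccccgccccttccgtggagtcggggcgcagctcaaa
Cyp51 (chr5:4104698-4104877, minus strand): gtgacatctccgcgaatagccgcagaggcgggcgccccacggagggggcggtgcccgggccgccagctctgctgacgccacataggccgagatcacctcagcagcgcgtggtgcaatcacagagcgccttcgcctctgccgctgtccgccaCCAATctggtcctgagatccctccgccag

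Genes of cell division were lower in both libraries and more so in replicate 2. The DNA replication list had 45 of 56 genes below both CTR libraries, with -0.56 and -1.39 as the medians of replicates 1 and 2, and the mitosis list 55 of 65 with -0.71 and -1.95. Ung, a uracil DNA glycosylase gene that removes misincorporated uracil, had a wide interval with 8.89 and 5.88 CPM in the CTR libraries and 1.51 and 0.744 CPM in the OAT-1746 libraries, and an adjusted p of 0.0599 in edgeR at a log2 difference of -2.70 ± 0.37 and both libraries below CTR. Pcna, the sliding clamp of DNA polymerases, was at 111 and 117 CPM in the CTR libraries and 91.6 and 66.2 CPM in the OAT-1746 libraries, and Dlgap5, a spindle protein gene, at 4.32 and 3.24 CPM in the CTR libraries and 1.05 and 0.572 CPM in the OAT-1746 libraries. Hjurp, the chaperone of the centromere histone, was an exception with 37.2 and 40.7 CPM in the CTR libraries and 46.9 and 64.1 CPM in the OAT-1746 libraries.

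Carbon metabolism and protein folding showed smaller or mixed differences. Among 31 genes of glycolysis and the hypoxia response 15 lay below and 5 above both CTR libraries, with a median of -0.34 (-0.14 in replicate 1 and -0.57 in replicate 2). Ldha, lactate dehydrogenase, was at 705 and 692 CPM in the CTR libraries and 473 and 203 CPM in the OAT-1746 libraries and Pkm, pyruvate kinase, at 1414 and 1324 CPM in the CTR libraries and 1008 and 422 CPM in the OAT-1746 libraries. Pfkfb3, whose product stimulates glycolysis, was higher with 200.3 and 178 CPM in the CTR libraries and 252 and 310.3 CPM in the OAT-1746 libraries. Of 39 chaperone genes 22 lay below and 7 above, with a median of -0.34 (-0.21 in replicate 1 and -0.47 in replicate 2, or -0.21 without CTR replicate 1). Dnajb4, a cochaperone of HSP70, stood out with 11.9 and 14.8 CPM in the CTR libraries and 38.9 and 61.7 CPM in the OAT-1746 libraries, a log2 difference of 1.91 ± 0.24 and an adjusted p of 0.0599 in edgeR and 3.18e-08 in DESeq2. Hspa8 and the chaperonin subunit gene Cct5 were lower, with 2910.0 and 2019.6 CPM in the CTR libraries and 1935 and 1356 CPM in the OAT-1746 libraries for Hspa8 and 287 and 259.6 CPM in the CTR libraries and 187 and 127 CPM in the OAT-1746 libraries for Cct5. Lysosomal hydrolases split into 18 below and 7 above of 35, with a median of -0.13 (-0.12 in replicate 1 and -0.14 in replicate 2, or -0.04 with scaling by library size only). Psap, the saposin precursor gene, was at 12554 and 9804 CPM in the CTR libraries and 8061 and 5223 CPM in the OAT-1746 libraries.

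**Figure D5:**
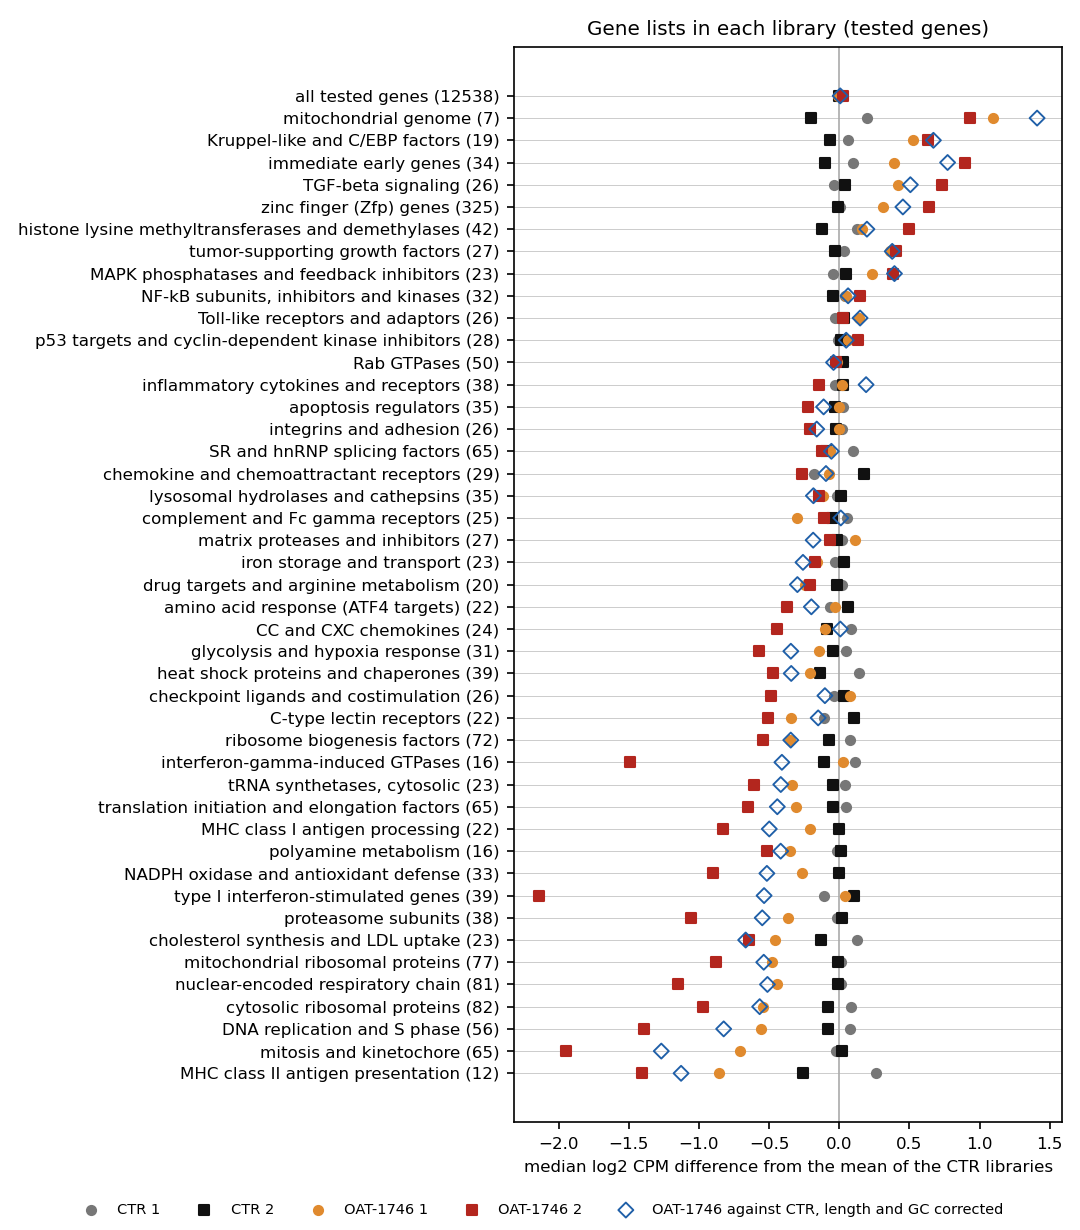
Median log2 CPM difference from the mean of the CTR libraries (horizontal axis) of the tested members of each gene list (vertical axis, number of tested members in parentheses) for the CTR and OAT-1746 libraries, with diamonds for the fitted median of OAT-1746 against CTR after a correction for length and GC content. Lists are ordered by the fitted median without the correction, from the mitochondrial genome (1.01) to MHC class II (-1.31), and most lists have both OAT-1746 libraries on the same side of 0.

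Genes induced by signals lay on the other side. Of 34 immediate early genes, which cells transcribe within minutes of a stimulus and which tissue dissociation also induces, 20 were above both CTR libraries and 1 was below, with a median of 0.69 (0.39 in replicate 1 and 0.89 in replicate 2). Egr1, a zinc finger factor of this class, was in the widest-interval group above. Klf2, a factor that keeps macrophages and endothelial cells quiescent, stood at 216 and 212 CPM in the CTR libraries and 442 and 1235 CPM in the OAT-1746 libraries, while Junb and Zfp36 were at 2520.5 and 2365 CPM in the CTR libraries and 2986 and 3004 CPM in the OAT-1746 libraries for Junb and 2099 and 2151 CPM in the CTR libraries and 2813 and 2873 CPM in the OAT-1746 libraries for Zfp36, so that these members differed less. A part of dissociation in these differences was not tested. Kruppel-like and C/EBP factors as a family were above CTR for 14 of 19 genes with a median of 0.70 (0.53 in replicate 1 and 0.63 in replicate 2, or 0.43 without OAT-1746 replicate 1). Klf12 was at 3.90 and 6.71 CPM in the CTR libraries and 14.1 and 14.4 CPM in the OAT-1746 libraries, with nearly equal OAT-1746 libraries.

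Feedback inhibitors of the MAP kinases were above CTR for 13 of 23 genes, with a median of 0.31 (0.23 in replicate 1 and 0.38 in replicate 2). Beside Dusp8, Errfi1, an inhibitor of the EGF receptor, had a wide interval with 27.4 and 33.9 CPM in the CTR libraries and 84.9 and 147 CPM in the OAT-1746 libraries and an adjusted p of 0.0599 in edgeR at a log2 difference of 1.92 ± 0.28, both libraries above CTR. Dusp1, the most abundant of the list per kilobase, was at 1268 and 1498 CPM in the CTR libraries and 1580.2 and 2103 CPM in the OAT-1746 libraries, and Dusp6 at 491 and 434 CPM in the CTR libraries and 428 and 519 CPM in the OAT-1746 libraries, which overlapped. In the NF-kB list 12 of 32 genes lay above and 10 below, with a median of 0.11 (0.05 in replicate 1 and 0.15 in replicate 2, or 0.22 without CTR replicate 1, -0.01 without CTR replicate 2, 0.06 with the length and GC correction and 0.20 with scaling by library size only). Tnfaip3, the gene of the ubiquitin-editing enzyme A20, was on the upper side (346 and 325 CPM in the CTR libraries and 499 and 772 CPM in the OAT-1746 libraries). Map3k8, the kinase that links NF-kB signals to ERK, stood at 26.7 and 27.3 CPM in the CTR libraries and 48.4 and 60.3 CPM in the OAT-1746 libraries, and Ikbke, an interferon-inducible kinase gene of the same pathway, lay on the lower side at 37.4 and 28.6 CPM in the CTR libraries and 21.9 and 4.18 CPM in the OAT-1746 libraries. Toll-like receptors and their adaptors split into 10 above and 8 below of 26, with a median of 0.10 (0.14 in replicate 1 and 0.03 in replicate 2, or 0.04 without CTR replicate 1, 0.02 without OAT-1746 replicate 1 and 0.19 with scaling by library size only). Tlr7, a sensor of single-stranded RNA, was at 262 and 403 CPM in the CTR libraries and 485 and 579.8 CPM in the OAT-1746 libraries, Tlr1, which binds bacterial lipopeptides with TLR2, at 142 and 141 CPM in the CTR libraries and 89.7 and 83.1 CPM in the OAT-1746 libraries, and the adaptor gene Ticam1 at 37.5 and 38.8 CPM in the CTR libraries and 64.8 and 70.9 CPM in the OAT-1746 libraries.

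Homeostatic microglia depend on TGF-beta. Its list of ligand, receptor, SMAD and regulator genes and Tgfbi was above CTR for 20 of 26 members and below for 2 (1 with scaling by library size only), with a median of 0.58 (0.42 in replicate 1 and 0.73 in replicate 2). Tgfbi, its most abundant member per kilobase, was lower as given above, and the list summed to 9573 and 8726 CPM in CTR and 7915 and 6791 CPM in OAT-1746. The receptor genes Tgfbr1 and Tgfbr2 stood at 1147 and 1518 CPM in the CTR libraries and 1759.9 and 2258 CPM in the OAT-1746 libraries for Tgfbr1 and at 638 and 782 CPM in the CTR libraries and 903 and 1165 CPM in the OAT-1746 libraries for Tgfbr2. Bmpr1a, a receptor gene for bone morphogenetic proteins, was at 17.0 and 25.5 CPM in the CTR libraries and 42.5 and 59.6 CPM in the OAT-1746 libraries. The ligand Tgfb1 itself was on the other side at 754 and 699 CPM in the CTR libraries and 684 and 572 CPM in the OAT-1746 libraries. Tgfbr1 is also a member of the microglia list.

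In 2 further lists more genes lay above CTR than below. The first, that of Zfp genes, was taken by gene symbol and so is not limited to regulators of transcription. Among 325 tested Zfp genes 194 lay above and 17 (10 with scaling by library size only) below both CTR libraries, with a median of 0.47 (0.31 in replicate 1 and 0.64 in replicate 2) that was 0.45 with the length and GC correction. Zfp36l1, which promotes decay of mRNAs with AU-rich elements, was at 292 and 256 CPM in the CTR libraries and 379.8 and 477 CPM in the OAT-1746 libraries. Histone lysine methyltransferases and demethylases were above CTR for 21 of 42 genes and below for 9. Their median was 0.35 (0.16 in replicate 1 and 0.49 in replicate 2, or 0.23 without CTR replicate 2 and 0.20 with the correction). Kdm6b, an H3K27 demethylase gene, stood at 74.6 and 59.3 CPM in the CTR libraries and 125 and 182 CPM in the OAT-1746 libraries.

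Secreted factors and their receptors showed gene-by-gene patterns. Chemokine genes were below CTR for 9 of 24, or 37.5% against 32.1% of all tested genes, and above for 2. Their median was -0.32 (-0.10 in replicate 1 and -0.44 in replicate 2, or -0.07 without CTR replicate 2, -0.19 in DESeq2, 0.01 with the length and GC correction and -0.17 with no filter on low counts). Cxcl16, a ligand for T cells carrying CXCR6, stood at 948 and 831 CPM in the CTR libraries and 474 and 167 CPM in the OAT-1746 libraries, and Ccl7, which attracts monocytes, at 79.5 and 67.2 CPM in the CTR libraries and 29.7 and 12.99 CPM in the OAT-1746 libraries. Cxcl9, a ligand induced by interferon-gamma that draws T cells, was at 1362 and 917 CPM in the CTR libraries and 869.7 and 187 CPM in the OAT-1746 libraries, where replicate 2 alone was far from CTR. Among receptors for chemoattractants 8 of 29 lay above and 11 below, with a median of -0.11 (-0.07 in replicate 1 and -0.27 in replicate 2, or -0.19 without CTR replicate 1 and -0.03 with scaling by library size only). The former include the microglial genes P2ry12, P2ry13 and Cx3cr1, with P2ry13 at 751 and 1305 CPM in the CTR libraries and 1756 and 2070.3 CPM in the OAT-1746 libraries. Cytokines and their receptors split into 12 above and 13 below of 38, and their median of -0.06 (0.02 in replicate 1 and -0.14 in replicate 2, and from -0.16 without OAT-1746 replicate 1 to 0.19 with the length and GC correction over the other settings) changed sign between settings. Il10ra, the receptor chain for interleukin-10, was at 582 and 601 CPM in the CTR libraries and 882 and 1026 CPM in the OAT-1746 libraries, and Il6ra at 162 and 177 CPM in the CTR libraries and 265 and 361 CPM in the OAT-1746 libraries, both higher in both libraries.

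Growth factors were above CTR for 13 of 27 genes and below for 8, with a median of 0.32 (0.36 in replicate 1 and 0.41 in replicate 2, or 0.49 in DESeq2, 0.09 with at least 10 counts in every library and 0.50 with no filter on low counts). Hbegf, a ligand of the EGF receptor, was at 6.19 and 4.65 CPM in the CTR libraries and 11.2 and 20.2 CPM in the OAT-1746 libraries, and Hgf, the ligand of MET, at 31.1 and 27.9 CPM in the CTR libraries and 13.1 and 9.21 CPM in the OAT-1746 libraries. Gpnmb, a glycoprotein gene of lipid-laden macrophages, stood at 976 and 963 CPM in the CTR libraries and 721 and 31.6 CPM in the OAT-1746 libraries, where replicate 1 was nearer to CTR and replicate 2 far below. In the list of matrix proteases Mmp14, a membrane-bound collagenase gene, was lower with 766 and 547 CPM in the CTR libraries and 316 and 96.2 CPM in the OAT-1746 libraries, and Adamts1, a secreted protease gene, was higher with 21.7 and 22.0 CPM in the CTR libraries and 52.4 and 73.6 CPM in the OAT-1746 libraries, while the list as a whole split into 10 above and 9 below of 27, with a median of -0.15 (0.11 in replicate 1 and -0.07 in replicate 2, and from -0.19 with the replicate block and the length and GC correction to 0.30 without CTR replicate 2 over the other settings).

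Surface proteins with roles in checkpoint control and uptake lay on either side. Vsir, the gene of the inhibitory ligand VISTA, stood at 1476 and 2044 CPM in the CTR libraries and 2816 and 3629 CPM in the OAT-1746 libraries, and Sirpa, the receptor for the do-not-eat-me signal CD47, at 1639 and 1850.1 CPM in the CTR libraries and 2289.8 and 2977 CPM in the OAT-1746 libraries, both with the OAT-1746 libraries highest of the 9. Pdcd1lg2, the PD-L2 gene, was at 13.1 and 6.65 CPM in the CTR libraries and 3.38 and 1.72 CPM in the OAT-1746 libraries, where they were the lowest. The list of checkpoint ligands and costimulation had 8 above and 8 below of 26, with a median of -0.37 (0.08 in replicate 1 and -0.49 in replicate 2, or -0.18 without CTR replicate 1, -0.06 without CTR replicate 2, 0.02 without OAT-1746 replicate 2, -0.07 with at least 10 counts in every library, -0.10 with the length and GC correction and -0.17 with only the groups compared). C1qa, C1qb and C1qc, the genes of the first complement component, did not differ beyond the spread of the libraries. C1qa was at 5478 and 5856 CPM in the CTR libraries and 5415 and 5801 CPM in the OAT-1746 libraries with a log2 difference of -0.02 ± 0.17, or 0.25 with the length and GC correction. Cfp, the gene of the complement activator properdin, was at 160.4 and 136 CPM in the CTR libraries and 85.7 and 28.04 CPM in the OAT-1746 libraries. Over the 25 genes of complement and Fc receptors 12 lay below and 3 above both CTR libraries. The median was -0.13 (-0.30 in replicate 1 and -0.11 in replicate 2, or -0.36 without CTR replicate 2, -0.26 with at least 10 counts in every library, 0.01 with the length and GC correction and -0.03 with scaling by library size only). C-type lectins were below CTR for 11 of 22 genes with a median of -0.38 (-0.34 in replicate 1 and -0.51 in replicate 2, or -0.23 without CTR replicate 2 and -0.15 with the length and GC correction), among them Clec4n (dectin-2) with 247 and 170.1 CPM in the CTR libraries and 84.1 and 10.8 CPM in the OAT-1746 libraries. Cd69, an early activation marker, stood at 48.5 and 32.5 CPM in the CTR libraries and 15.9 and 11.7 CPM in the OAT-1746 libraries. Integrins and adhesion genes split into 8 above and 12 below of 26, with a median of -0.10 (0.00 in replicate 1 and -0.21 in replicate 2, and from -0.23 without OAT-1746 replicate 1 to 0.01 without OAT-1746 replicate 2 over the other settings). Itgax, the CD11c chain, was at 1431 and 667 CPM in the CTR libraries and 404 and 96.4 CPM in the OAT-1746 libraries, Cd44, the hyaluronan receptor, at 302 and 289 CPM in the CTR libraries and 189 and 47.6 CPM in the OAT-1746 libraries, and Selplg, the P-selectin ligand, at 1192 and 1860.1 CPM in the CTR libraries and 2766 and 3338 CPM in the OAT-1746 libraries, the last on the upper side.

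The remaining lists concern defense, iron and cell survival. NADPH oxidase and antioxidant genes were below CTR for 22 of 33 with a median of -0.53 (-0.27 in replicate 1 and -0.90 in replicate 2). Cybb, the catalytic subunit of the phagocyte oxidase, was at 1936 and 1546 CPM in the CTR libraries and 986 and 262 CPM in the OAT-1746 libraries and its partner Cyba at 781 and 788 CPM in the CTR libraries and 566 and 280.2 CPM in the OAT-1746 libraries. Iron genes were below CTR for 12 of 23 and above for 6 (7 below and 6 above with scaling by library size only). Their median was -0.21 (-0.16 in replicate 1 and -0.17 in replicate 2, or -0.12 with scaling by library size only). The ferritin chains Fth1 and Ftl1 were at 8262 and 8965 CPM in the CTR libraries and 6021 and 2023 CPM in the OAT-1746 libraries for Fth1 and 2373 and 2025 CPM in the CTR libraries and 1372 and 536 CPM in the OAT-1746 libraries for Ftl1, and Hmox1, which releases iron from heme, at 218 and 209.8 CPM in the CTR libraries and 111 and 91.4 CPM in the OAT-1746 libraries. Apoptosis regulators split into 9 above and 15 below of 35, with a median of -0.10 (0.00 in replicate 1 and -0.22 in replicate 2, or -0.05 without CTR replicate 2, 0.01 without OAT-1746 replicate 2 and -0.02 with scaling by library size only). Bmf, which promotes cell death, was higher with 70.5 and 95.5 CPM in the CTR libraries and 143 and 151 CPM in the OAT-1746 libraries, and Bcl2a1a, of a family of nearly identical survival genes, was lower with 78.7 and 68.2 CPM in the CTR libraries and 42.0 and 14.4 CPM in the OAT-1746 libraries. Targets of p53 and inhibitors of cyclin-dependent kinases split into 10 above and 6 below of 28, with a median of 0.07 (0.06 in replicate 1 and 0.13 in replicate 2, or 0.15 without CTR replicate 1, 0.02 without CTR replicate 2 and 0.16 with scaling by library size only). Btg2, an antiproliferative gene, was at 728 and 857 CPM in the CTR libraries and 1298 and 1352 CPM in the OAT-1746 libraries, and Cdkn1a, the inhibitor p21, at 262 and 312 CPM in the CTR libraries and 292 and 94.9 CPM in the OAT-1746 libraries, where replicate 1 lay between the CTR libraries and replicate 2 was low.

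OAT-1746 alone was also tested against COMB, in which mice received the same drug with the antibody. In edgeR's quasi-likelihood test 1121 genes were higher (8.94%) and 858 lower (6.84%) in OAT-1746 alone at an adjusted p under 0.05, where DESeq2 called 3005, and the smallest adjusted p in edgeR was 0.00148. Immediate early genes were higher for 24 of 34 members and lower for 0. Jun, named after its values were seen, stood at 2826 and 4376 CPM in OAT-1746 and at 821, 671 and 718 CPM in COMB, a log2 difference of 2.29 ± 0.23 with an adjusted p of 0.00528 in edgeR and both libraries above all 3. Egr1 was at 2591 and 3730.0 CPM in OAT-1746 and 224, 231 and 256 CPM in COMB. Among microglia markers 7 of 24 were higher and 0 lower, and of the ribosomal protein genes 0 were higher and 59 of 82 lower. Of the 12 class II genes 6 were lower, H2-Aa at 3455, 7319 and 6738 CPM in COMB. Pdcd1lg2 was at 6.53, 42.8 and 40.8 CPM in COMB, a log2 difference of -3.56 ± 0.79 with an adjusted p of 0.0287 in edgeR and both libraries below all 3. The 858 lower calls became 0 without COMB replicate 3 and 1 without COMB replicate 2. With only the OAT-1746 and COMB libraries in the fit there were 2 lower calls, and with replicate number as a block 0. These counts depended on single libraries, since without OAT-1746 replicate 2 the test called 27 genes, without COMB replicate 3 it called 5, without COMB replicate 2 it called 14, and without OAT-1746 replicate 1 it called 4033. It called 734 and 808 without CTR replicate 1 and 2, 861 and 927 without anti-PD-1 replicate 1 and 2, and with only the OAT-1746 and COMB libraries in the fit 30.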

How the data were processed

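The deposited values were raw counts of read pairs per gene. Per the paper's methods the authors used Trimmomatic for trimming and STAR for alignment to mm10, flagged duplicates with Picard and counted with HTSeq-count at a mapping quality of at least 10, in strand-specific mode, from poly-A libraries of CD11b+ cells sorted from dissociated hemispheres of perfused mice. Of 53801 genes in the table, 53620 were found in GENCODE M21, and the 21890 protein-coding genes among them were used. The table has 1 column per library, and libraries were grouped by title. The label of anti-PD-1 replicate 2 names a different antibody, anti-PD-2, and its title was followed.

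Counts were filtered with filterByExpr (minimum count 10) over the 4 groups, scaled by TMM and fitted with edgeR 4.0.16 (glmQLFit, 1 term per group, 5 residual degrees of freedom, R 4.3.3) to all 9 libraries. OAT-1746 was tested against CTR and against COMB with quasi-likelihood F tests and Benjamini-Hochberg adjustment over all 12538 tested genes, with a threshold of 0.05 and a second one of 0.10. The common biological coefficient of variation was 0.214. An SE is the absolute log2 difference divided by the square root of the F statistic of its test. Distances between libraries are differences of log2 CPM with a prior count of 2. A list's median covers the fitted log2 differences of its tested members, and its members with both OAT-1746 libraries on one side of both CTR libraries were counted. Medians per library are on the log2 CPM scale, which differs slightly from the fitted scale. In all, 75 tested genes belong to more than 1 list. Correlations or overlaps between comparisons that share libraries are not given.

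Named genes follow a rule. Of the tested genes with a mean of at least 5 CPM over the CTR and OAT-1746 libraries, it takes the 12 with the widest interval upward and the 12 with the widest interval downward between the nearest OAT-1746 and CTR libraries. Of each list, it takes up to 3 members with the highest mean CPM and up to 2 with the widest interval in each direction, and all members of lists with at most 12 tested members. Nos2, Itgam, Odc1, Asns and 2 more genes are always included. Some genes and 1 list that the rule takes are not reported here. From this set the text names those that represent their list. Ly6c2, Ccr2 and Jun were chosen after their values were seen, as were the names Gpr84, Hmgcs1 and Msmo1. The libraries and lists were chosen with earlier results of these data known.

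Alternatives were DESeq2 1.42.0, limma 3.58.1 (voom with quality weights), DESeq2 size factors or library size as scaling, other filters on low counts, every gene of the table in place of protein-coding ones, robust dispersion, a loess correction (span 0.5) for gene length and GC content, replicate number as a block, fits with only the groups compared, and leaving out each library. Results of a test of the models on simulated data are not given here. Promoters are the bases before RefSeq start sites of GRCm38.p6. Figures were drawn with matplotlib 3.10.9. Single-cell data and flow cytometry of the study were not used here.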

Additional observations from a re-analysis of the deposited data

How the results depend on the processing

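Between OAT-1746 and CTR, edgeR's quasi-likelihood test called 0 genes at an adjusted p under 0.05 with genes of every type included, either other scaling, at least 10 counts in every library, robust dispersion, the length and GC correction or only the groups compared, and limma voom called 0. The count was 4049 at an unadjusted p under 0.05, 1923 in DESeq2, 587 with no filter on low counts and 2438 at an adjusted p under 0.10, which in turn was 0 with only the groups compared. Leaving out 1 library gave 0 to 3617, with 3617 without OAT-1746 replicate 1, 278 without COMB replicate 1 and 0 without any other. Against COMB the count of 1979 was 3005 in DESeq2, 30 with only the groups compared and 3868 at an adjusted p under 0.10. Leaving out 1 library gave 5 to 4033, with 4033 without OAT-1746 replicate 1, 27 without OAT-1746 replicate 2, 14 and 5 without COMB replicates 2 and 3, 734 and 808 without CTR replicates 1 and 2, and 861 and 927 without anti-PD-1 replicates 1 and 2. The cause of these differences was not tested. The labels name nothing that replicates of the same number share. After removal of group means the correlation was 0.0833 for CTR 1 with OAT-1746 1 and -0.349 for COMB 1 with OAT-1746 1. It was -0.238 for COMB 2 with OAT-1746 2 and -0.217 for CTR 1 with anti-PD-1 1. Whether libraries of different groups shared a batch was not tested. With replicate number as a block the counts were 0 against CTR (also at 0.10) and 2 against COMB, and 2 also with the block and the length and GC correction. List medians stayed within 1 SD between the OAT-1746 libraries in 646 of 731 values from other settings and in 461 of 549 values with 1 library left out. This measure is lenient where the OAT-1746 libraries disagree, and values within it can still change sign. For the type I interferon list the SD was 1.54. Its median went from -0.62 to 0.04 without OAT-1746 replicate 2 and was still counted as within it. Under the other scalings the number of list members on either side of CTR (above plus below) stayed within 1.5 times in 122 of 122 values, while with library size alone those below fell from 12 to 7 for iron genes, from 17 to 10 for Zfp genes and from 2 to 1 for TGF-beta genes, and those above went from 0 to 1 for mitochondrial ribosomal proteins, and library size alone shifted the median of all genes by less than 0.1. The erythroid list gave no value with at least 10 counts in every library. Of 162 named genes, the sign against CTR differed in 19 of 1942 values from other settings and in 22 of 1458 with 1 library left out, none of them called. Against COMB, 1 call had the opposite sign, that of Ly6c2 without OAT-1746 replicate 1, with a log2 difference of -3.15, against 0.46 with all libraries and 1.39 without OAT-1746 replicate 2. At 13048075 counts in the smallest library, 1 count is less than 0.1 CPM, so differences of genes under 1 CPM rest on few counts.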
